A study of Homo sapiens with 30 samples.

Results

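The data are the part of an ATAC-seq series that covers TWIST2 and HDAC4, neighbouring genes of band 2q37 near the end of the long arm of chromosome 2. ATAC-seq measures open chromatin through the DNA that a transposase can reach and cut. The members are all deposited regions that overlap chromosome 2 from 239.5 to 240.33 Mb on the hg19 build, a stretch of 830 kb. The rule found 123 of 89929 differential regions and 7 of 22974 wild-type cluster regions. The series compares HNF6 (ONECUT1) knockout cells with wild-type control cells of HUES8, an established human embryonic stem cell line, through pancreatic differentiation in vitro. HNF6 is a homeodomain transcription factor of developing liver and pancreas. There are 30 samples in 10 groups of 3, which are knockout and control cells at 5 stages. In order of differentiation the stages are undifferentiated stem cells (ESC), definitive endoderm (DE), the primitive gut tube stage (GT), the pancreatic endoderm stage (PE) and, last, pancreatic progenitors (PP). The labels do not say whether the knockout line is 1 clone, or whether the 3 samples of a group are separate differentiations, so the spread among them may be technical.

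Each stage has 1 list of regions higher in the knockout and 1 list of regions higher in control cells. The members were chosen by position, and the block itself was selected on the number and direction of its regions in these lists, so its counts and ratios are a description and no test was run on them. The authors had already selected each region for a difference, and 3 values against 3 cannot give a two-sided exact permutation p below 0.1. Gene positions follow the rule and are approximate: the TWIST2 start lies near 239.757 Mb, and HDAC4 runs from about 239.97 to 240.32 Mb. The TWIST2 side is the 0.470 Mb of the block before 239.97 Mb, and the HDAC4 side is the 0.360 Mb from there on. The depth of the libraries is unknown. In bulk cells a higher value may mean that more cells have a place open or that it is more open in each cell, and these cannot be told apart.

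TWIST2 encodes a basic helix-loop-helix factor of mesenchymal cells that pairs with E proteins, binds E-box sequences and can promote the transition from epithelial to mesenchymal states. HDAC4 encodes a class IIa histone deacetylase, a corepressor with weak enzyme activity of its own that binds MEF2 factors, recruits the HDAC3 complex, and moves between nucleus and cytoplasm when it is phosphorylated. In the mouse embryonic pancreas, class IIa deacetylases including HDAC4 limit the formation of beta and delta cells. Accessibility is not expression, and no RNA is measured here.

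TWIST2 is read towards higher coordinates and HDAC4 towards lower ones, so the genes are read towards each other. In the RefSeq annotation, 0 coding genes lie between them, ASB1 is the coding gene before TWIST2, and NDUFA10 the one after HDAC4. The promoters are shown because listed regions lie at the approximate positions of both starts. They are RefSeq sequences on GRCh38.p14, with 250 bases before and 50 after the start, and the build differs from that of the regions. TWIST2 has 1 start in the table, at chr2:238847835-238848134 on the plus strand, and the outermost of the 5 HDAC4 starts is at chr2:239401600-239401899 on the minus strand. Capitals mark the E-box letters CANNTG.
TWIST2: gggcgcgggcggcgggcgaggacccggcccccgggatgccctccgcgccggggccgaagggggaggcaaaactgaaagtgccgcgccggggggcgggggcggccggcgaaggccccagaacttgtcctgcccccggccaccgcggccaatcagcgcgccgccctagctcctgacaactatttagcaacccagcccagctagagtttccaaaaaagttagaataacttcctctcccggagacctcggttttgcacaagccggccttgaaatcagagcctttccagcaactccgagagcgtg
HDAC4: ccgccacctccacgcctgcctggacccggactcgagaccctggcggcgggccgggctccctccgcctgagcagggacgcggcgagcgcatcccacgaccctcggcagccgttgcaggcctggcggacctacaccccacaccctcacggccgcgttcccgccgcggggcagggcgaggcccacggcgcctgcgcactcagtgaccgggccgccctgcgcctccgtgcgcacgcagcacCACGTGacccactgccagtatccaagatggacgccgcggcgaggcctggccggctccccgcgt
Both strands were searched for the core letters of ONECUT factor sites, ATTGAT and ATCGAT, and for CANNTG. The TWIST2 window held 0 matches to each of the 3. The HDAC4 window held 1 CANNTG and 0 of the others. Of 35116 promoter windows of this length, 6.26% held ATTGAT, 0.763% held ATCGAT and 68.7% held CANNTG. G and C made up 66.7% of the TWIST2 window and 76.3% of the HDAC4 window, with 29 and 40 CpG pairs.

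Regions of the block were listed mostly as more open in HNF6 knockout cells. Over the 5 stages 112 regions were in a knockout list and 11 in a control list. At ESC there were 19 knockout-list and 8 control-list regions, at DE 8 and 1, at GT 20 and 1, at PE 28 and 0, and at PP 37 and 1. The knockout share of the block was thus 70.4% at ESC, 88.9% at DE, 95.2% at GT, 100% at PE and 97.4% at PP. Over all listed regions of the series that share was 57.4% at ESC, 62.8% at DE, 73.0% at GT, 43.9% at PE and 88.7% at PP. PE is the stage at which the genome as a whole leaned the other way, and PP the stage at which the block differed least from it.

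The direction divided along the block, mainly at ESC. On the TWIST2 side all 79 listed regions, at every stage, were higher in the knockout, with 14 at ESC, 8 at DE, 12 at GT, 23 at PE and 22 at PP. On the HDAC4 side 33 were higher in the knockout and 11 in control cells. That knockout share of 75.0% was close to the 74.5% of both flanks together, and over all lists it was 68.1%. At ESC the share on the HDAC4 side was 38.5%, close to the 38.9% of the right flank, while the left flank had 62.9%. At GT, PE and PP it was 88.9%, 100% and 93.8% on the HDAC4 side, against 85.7%, 84.4% and 91.6% in both flanks together. On the HDAC4 side, knockout-list and control-list regions numbered 5 and 8 at ESC, 0 and 1 at DE, 8 and 1 at GT, 5 and 0 at PE, and 15 and 1 at PP. All 11 control-list regions of the block therefore lay over the approximate span of HDAC4, and 8 of them were from undifferentiated cells.

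**Figure D1:**
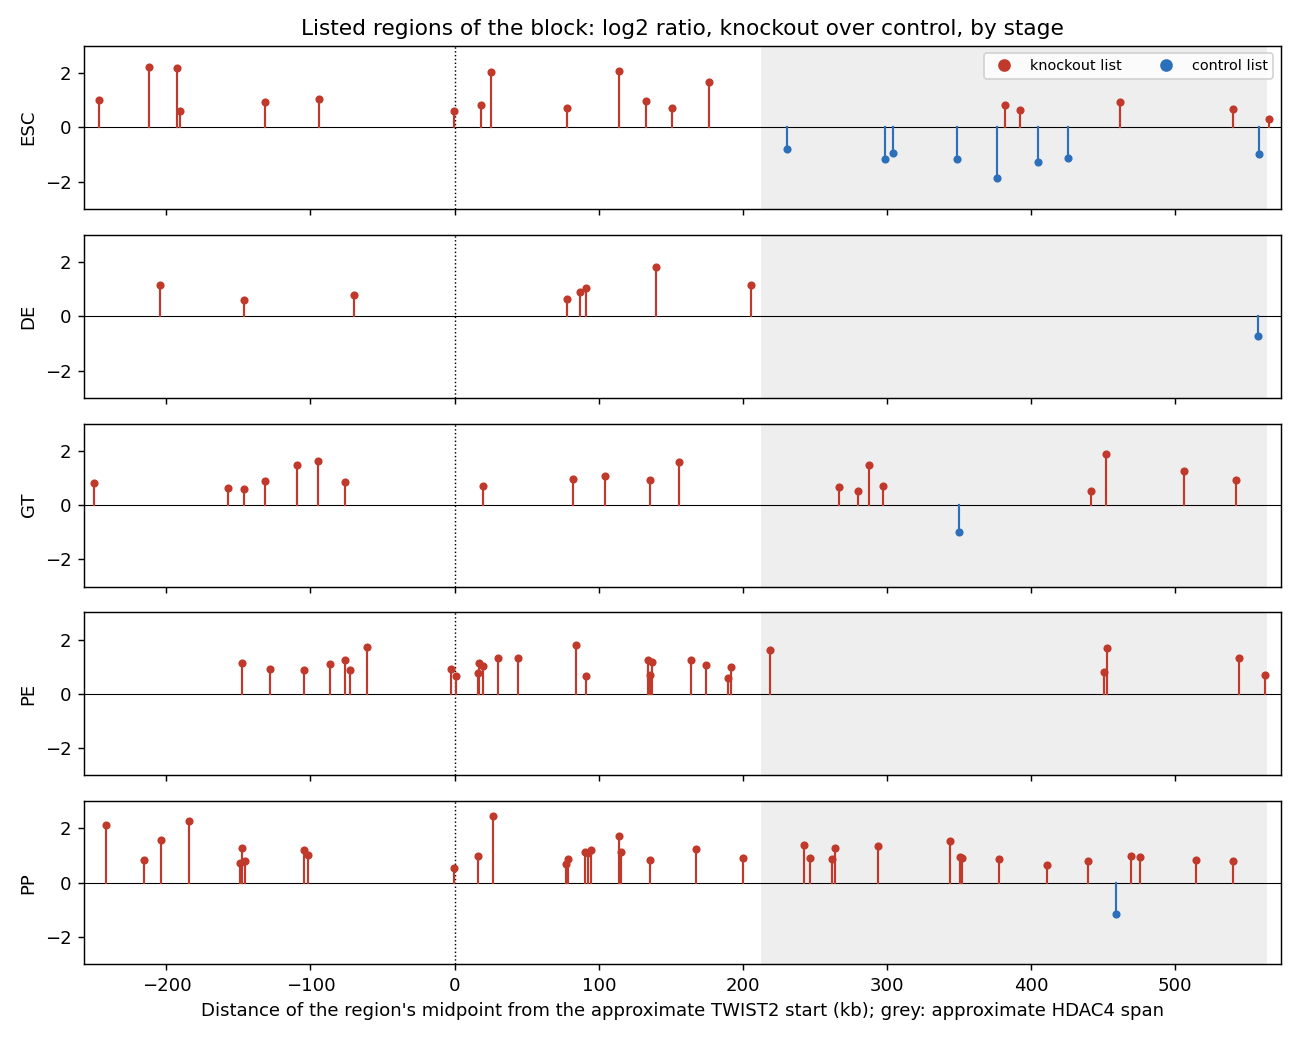
Listed regions of the block at each stage. The x axis is the distance of a region's midpoint from the approximate TWIST2 start in kb, the y axis the log2 ratio of knockout to control, and grey marks the approximate HDAC4 span. Every region left of the grey area points up, and the 8 control-list regions at ESC lie within it.

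**Figure D2:**
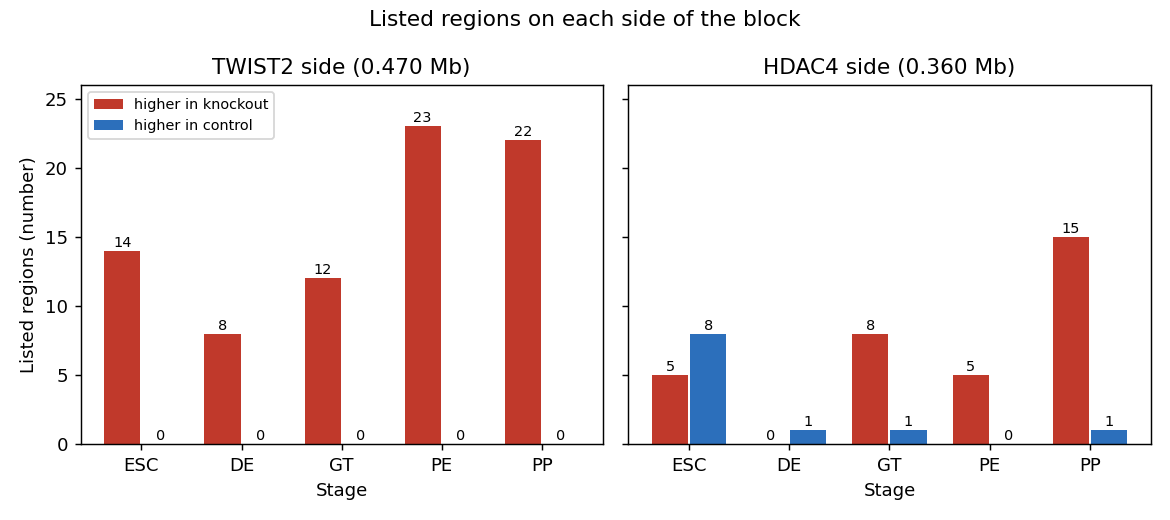
Number of listed regions higher in knockout (red) and in control cells (blue) at each stage on the TWIST2 side (left panel) and the HDAC4 side (right panel). The TWIST2 side has 0 control-list regions at each stage, and the HDAC4 side has 8 at ESC.

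Chromosome 2 within 5 Mb either side of the block shared part of this pattern. The right flank ends at the last listed base of the chromosome, after 2.687 Mb. At PE the knockout share was 100% in the block, 74.5% in the left flank and 94.4% in the right flank, against 51.0% over all of chromosome 2. At GT it was 95.2%, 90.9% and 80.0%, against 81.6%, and at PP 97.4%, 86.4% and 96.0%, against 90.3%. At ESC it was 70.4%, 62.9% and 38.9%, against 65.8%, and at DE 88.9%, 52.5% and 54.5%, against 36.5%. The high knockout share at PE thus extended to the end of the chromosome. At PP the share was high over all of chromosome 2 and over the whole series (88.7%), and the left flank was below both. At DE the share was higher in the block than in either flank, but it rested on 9 listed regions. Knockout-list regions per Mb at DE were 9.64 in the block, 6.20 in the left flank and 13.4 in the right flank.

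The number of listed regions per Mb was above both flanks at ESC, GT and PE only. At ESC it was 32.5 in the block, 12.4 in the left flank and 26.8 in the right flank, and at GT 25.3, 8.80 and 14.9. At PE it was 33.7 in the block and 20.1 in the right flank, with 55 regions in the 5 Mb of the left flank, and the excess in the block lay on the TWIST2 side, with 48.9 per Mb, while the HDAC4 side had 13.9, fewer than the right flank. At PP the block, with 45.8 per Mb, was close to the 46.2 of the right flank, and the left flank had 20.6. At DE the block had 10.8 per Mb, against 11.8 in the left flank and 24.6 in the right flank. The edge of the block did not bound the PE excess: the 500 kb just before it held 21 knockout-list and 0 control-list regions, beside 23 and 0 in the 0.470 Mb of the TWIST2 side. The last region before the block, chr2:239485101-239485400 in the knockout PE list, had values of 122, 37 and 67 in HNF6-KO samples against 27, 29 and 0 in controls in the authors' deposited table. The first region inside, chr2:239506501-239507650 in the knockout GT list, had 211, 274 and 280 in HNF6-KO samples against 180, 78 and 173 in controls in that deposited table. At the right edge, the next region outside was in the control DE list, chr2:240378801-240379650, with 106, 93 and 88 in HNF6-KO samples against 142, 244 and 167 in controls in the authors' deposited table.

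**Figure D3:**
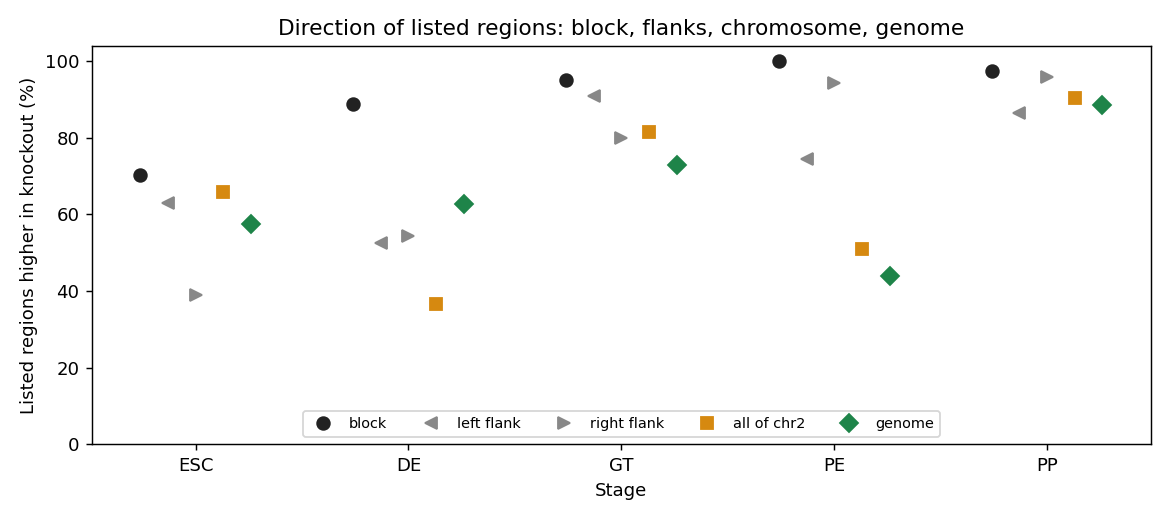
Share of listed regions higher in knockout, in percent, at each stage, for the block, the flanks of 5 Mb to its left and right, all of chromosome 2 and the genome. At PE the block is at 100%, the right flank at 94.4% and the genome at 43.9%.

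**Figure D4:**
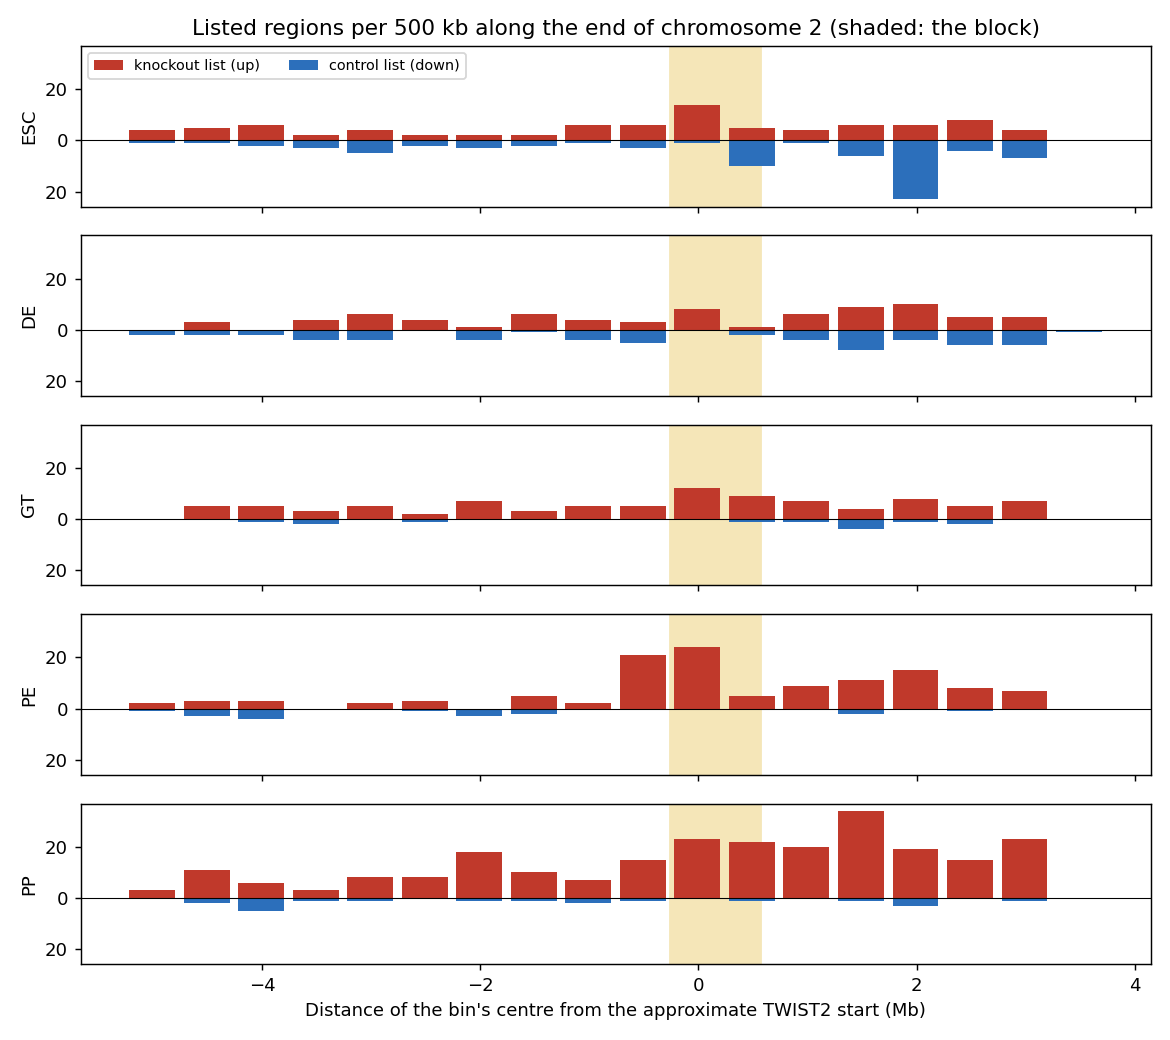
Listed regions per 500 kb along the end of chromosome 2, by stage, with the knockout list upward and the control list downward and the block shaded. The x axis is the distance of the bin's centre from the approximate TWIST2 start in Mb. At PE the bin that holds the TWIST2 start has 24 knockout-list regions and the bin before it 21.

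The approximate TWIST2 start lay within regions listed as more open in knockout cells at ESC and PP. At PE such regions lay on either side of it. At ESC the region chr2:239754451-239758650, 4200 bp wide, had values of 2123, 2186 and 2123 in HNF6-KO samples against 1452, 1415 and 1380 in controls in the authors' deposited table. The groups did not overlap, and the ratio of means was 1.51 (knockout over control, with 1 added to each mean, as in all ratios below). It had the highest -log10 p of the block at ESC, 29.9 in the authors' deposited table, with a modest ratio. At PE the outer parts of the same place were listed, and neither covers the approximate start. The region chr2:239754401-239755150 had 212, 277 and 135 in HNF6-KO samples against 97, 160 and 73 in controls, and chr2:239757851-239758500 had 381, 358 and 262 against 216, 136 and 282, in the authors' deposited table. The values of the genotypes overlapped in both. At PP the central part, chr2:239755401-239757550, had 563, 540 and 645 in HNF6-KO samples against 402, 349 and 453 in controls in the authors' deposited table, without overlap and with a ratio of 1.45. At DE and GT 0 regions were listed within 5 kb of the approximate start.

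The place listed at the most stages lay 15.7 to 20.8 kb beyond the TWIST2 start, on the side towards which the gene is read. It is a chain of overlapping regions, listed as more open in the knockout at ESC, GT, PE and PP. The PP region shares no base with the ESC or the GT region, so no single base was listed at all of these stages. At PE the region chr2:239773251-239774450 had values of 800, 753 and 721 in HNF6-KO samples against 284, 371 and 383 in controls in the authors' deposited table. It had the highest -log10 p of the block over all stages, 32.1 in that deposited table, and a ratio of 2.19. The PE region next to it, chr2:239775451-239777400, had 512, 554 and 541 in HNF6-KO samples against 226, 306 and 252 in controls in the authors' deposited table, a ratio of 2.05. A narrow PE region on its other side, chr2:239772801-239773050, had 341, 287 and 244 against 142, 166 and 199 in the authors' deposited table. In each of the 3 the genotypes did not overlap.

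At PP the first part of this place, chr2:239772701-239774300, had 845, 716 and 806 in HNF6-KO samples against 390, 342 and 475 in controls in the authors' deposited table, a ratio of 1.96. It led the PP regions of the block by -log10 p. At GT, chr2:239775401-239777750 had 501, 487 and 590 in HNF6-KO samples against 340, 292 and 339 in controls in the authors' deposited table, a ratio of 1.62. At ESC, chr2:239774351-239775600 had 282, 248 and 228 against 137, 191 and 100 in the authors' deposited table, a ratio of 1.77. The genotypes were separate at all 4 stages. Per kb, the knockout mean was 202 at ESC, 224 at GT, 632 in the leading PE region and 493 at PP, and the control mean 114, 138, 288 and 251. These values come from different stretches of the place, and the GT region overlaps neither the leading PE region nor the PP region. The PE region that does overlap the GT region, chr2:239775451-239777400, had a mean per kb of 275 in knockout and 134 in control cells. Scaling between stages is not known, so these levels are given side by side only.

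**Figure D5:**
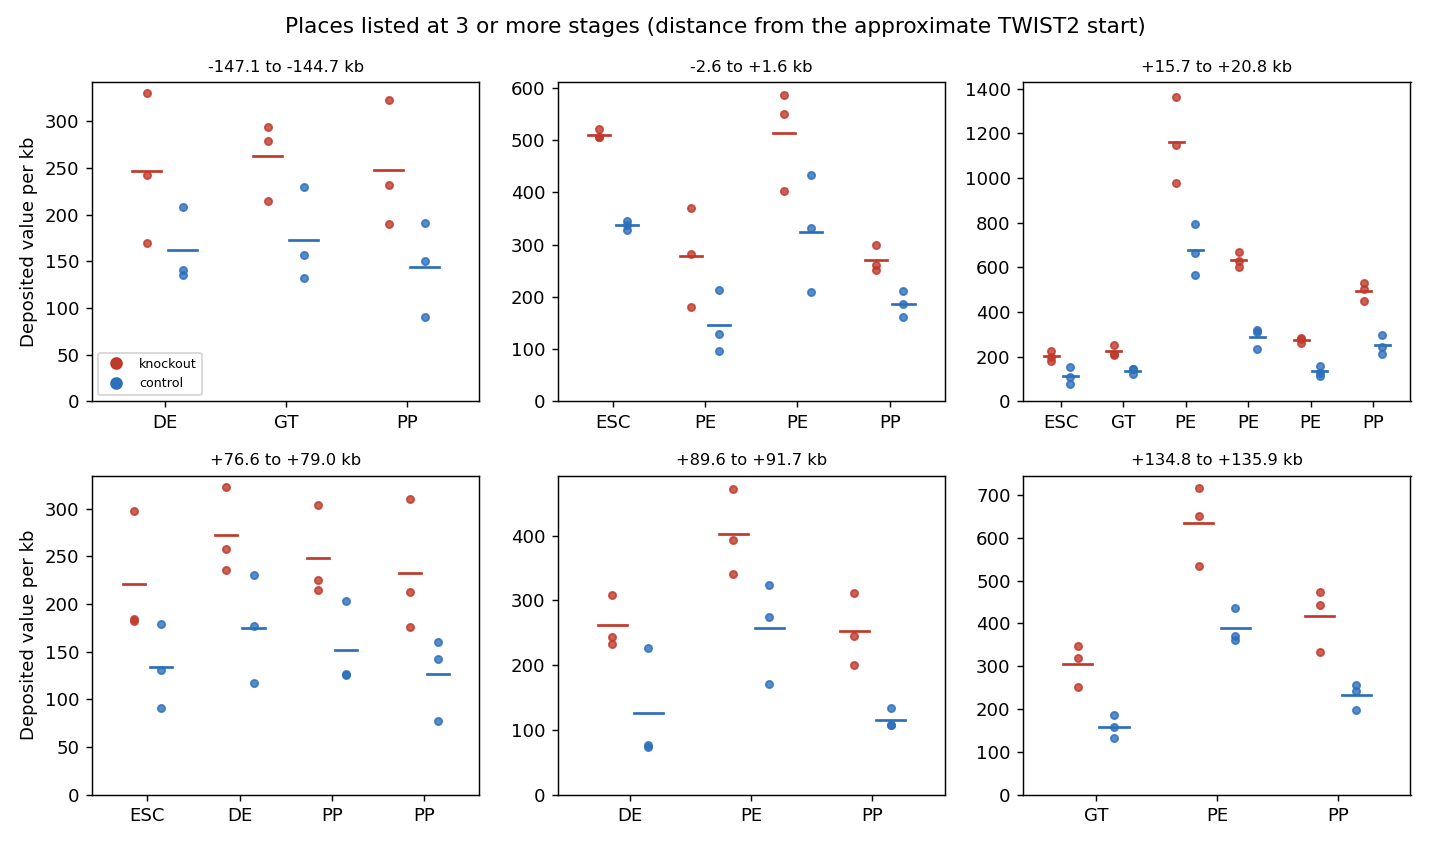
Deposited values per kb of region width at the 6 places listed at 3 or more stages. Points are the 3 knockout (red) and 3 control (blue) values of each listed region, bars their means, and panel titles give the distance from the approximate TWIST2 start; regions of one stage stand side by side. Means are higher in knockout in every panel, and the point clouds overlap in some.

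Listed regions that overlapped, directly or through another listed region, form 96 places in the block. Of these 80 were listed at 1 stage and 16 at 2 or more, and 0 at all 5. Of the 16, 14 were higher in knockout throughout, 1 in control throughout, and 1 changed direction. All 6 places listed at 3 or more stages lay on the TWIST2 side. Counted by region, 39 of the 112 knockout-list regions (34.8%) overlapped one of another stage in the same direction, against a background of 18.3% over all knockout lists. Of the 11 control-list regions 2 did so (18.2%), against 9.83%. The share of knockout-list regions was 35 of 79 (44.3%) on the TWIST2 side, 4 of 33 (12.1%) on the HDAC4 side and 27.7% in both flanks together. Such overlap is more likely where listed regions are dense, and the block was selected on their number and direction. These shares were not adjusted for density and are no separate trait of the block.

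The other recurrent places of the TWIST2 side differed in the size of the ratio and in whether the genotypes overlapped. From 239609901 to 239612350, before TWIST2, regions were listed at DE, GT and PP. The DE region had 808, 416 and 593 in HNF6-KO samples against 332, 345 and 511 in controls, and the GT region 398, 544 and 515 against 290, 244 and 425, in the authors' deposited table. The genotypes overlapped at all 3 stages there, with ratios of 1.53 at DE, 1.52 at GT and 1.72 at PP. From 239833601 to 239835950, regions were listed at ESC, DE and PP, with ratios from 1.55 to 1.83 and no overlap between genotypes. From 239846551 to 239848700 the stages were DE, PE and PP. At PP that place had 639, 501 and 411 in HNF6-KO samples against 275, 219 and 219 in controls in the authors' deposited table, a ratio of 2.17, which compares with 2.07 at DE and 1.56 at PE.

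The place from 239891801 to 239892950, between the approximate TWIST2 start and the approximate span of HDAC4, was listed at GT, PE and PP. Knockout values were 364, 263 and 334 at GT, 680, 508 and 618 at PE, and 333, 250 and 355 at PP in the authors' deposited table. Control values were 138, 167 and 195 at GT, 351, 342 and 415 at PE, and 192, 149 and 182 at PP in that deposited table. The genotypes were separate at each stage, and the ratios were 1.92, 1.63 and 1.79.

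On the HDAC4 side, the control-list regions of ESC were spread over the gene. The 8 regions ran from 239987101 to 240315300, and all 8 had separate genotypes, where 73.9% of the whole control ESC list had this property. The one with the largest ratio, chr2:240133151-240133450, had 17, 2 and 26 in HNF6-KO samples against 59, 33 and 80 in controls in the authors' deposited table, a low place with a knockout-to-control ratio of 0.27. The one with the highest -log10 p, chr2:240060351-240061450, had 152, 171 and 131 in HNF6-KO samples against 295, 316 and 272 in controls in the authors' deposited table, a ratio of 0.52. At chr2:240161101-240161850 the values were 67, 49 and 79 in HNF6-KO samples against 212, 112 and 147 in controls in the authors' deposited table. At chr2:240182151-240183000 they were 92, 45 and 115 against 179, 151 and 223, and at chr2:240055651-240056200 they were 80, 22 and 53 against 131, 97 and 126, in the authors' deposited table. The median control-to-knockout ratio of the 8 was 2.20, against 1.68 over the whole control ESC list. The 8 were also narrower and lower, with a median width of 675 bp against 900 bp and a median control mean of 162 against 319.

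Control-list regions after ESC were single ones. At DE and ESC the same place near the HDAC4 start was listed. The DE region, chr2:240313801-240315050, had 326, 152 and 220 in HNF6-KO samples against 330, 377 and 446 in controls, and the ESC region, chr2:240314701-240315300, had 137, 70 and 45 against 146, 165 and 192, in the authors' deposited table. At PP, chr2:240215701-240216300 had 114, 44 and 50 in HNF6-KO samples against 173, 132 and 162 in controls in the authors' deposited table. At GT, chr2:240106751-240107450 had 84, 66 and 108 in HNF6-KO samples against 135, 216 and 160 in controls in the authors' deposited table, a ratio of 0.51. This is the place that was listed in both directions. At PP, chr2:240107151-240107850 had 239, 165 and 86 in HNF6-KO samples against 91, 73 and 89 in controls in the authors' deposited table, with 1 of the knockout values inside the range of the controls and a ratio of 1.93.

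Knockout-list regions of the HDAC4 side were most numerous at PP, with 15, and their ratios ran from 1.59 to 2.92. The largest was chr2:240100051-240100700, with 127, 92 and 163 in HNF6-KO samples against 24, 54 and 51 in controls in the authors' deposited table. At GT there were 8, among them chr2:240208601-240208950, with 67, 44 and 105 in HNF6-KO samples against 5, 30 and 22 in controls in the authors' deposited table, a ratio of 3.65. At PE there were 5, among them chr2:240209301-240209550, with 61, 69 and 69 in HNF6-KO samples against 30, 17 and 13 in controls in the authors' deposited table, a ratio of 3.21. At ESC the knockout-list region at the approximate HDAC4 start, chr2:240321251-240323150, had 1344, 1580 and 1520 in HNF6-KO samples against 1264, 1215 and 1075 in controls in the authors' deposited table. Its ratio of 1.25 was the smallest among the knockout-list regions of the block, and its knockout mean of 780 per kb was the highest at ESC. It was picked for its position after its values were seen.

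The largest ratios of the block belonged to narrow places with low values. At PP they were chr2:239783801-239784050, with 32, 65 and 50 in HNF6-KO samples against 14, 10 and 0 in controls, and chr2:239572251-239572550, with 25, 79 and 97 against 12, 12 and 15, in the authors' deposited table. Their ratios were 5.56 and 4.86. Another PP region, chr2:239515051-239515400, had 100, 39 and 81 against 23, 14 and 11 in the authors' deposited table. At ESC, chr2:239545001-239545250 had 59, 40 and 51 in HNF6-KO samples against 15, 2 and 13 in controls in the authors' deposited table, a ratio of 4.64. The ESC region chr2:239564451-239564700 owed its ratio mainly to 1 value, with 15, 112 and 28 in HNF6-KO samples against 22, 10 and 0 in controls in the authors' deposited table. The place from 239870851 to 239871250 was listed at ESC, with 88, 31 and 113 in HNF6-KO samples against 27, 2 and 23 in controls, and at PP, with 123, 40 and 14 against 0, 23 and 28, in the authors' deposited table. Its genotypes were separate at ESC and overlapped at PP.

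Other leading regions by ratio or by -log10 p were on the TWIST2 side. At DE, where HDAC4 had 0 knockout-list regions, chr2:239896351-239896800 had 152, 118 and 61 in HNF6-KO samples against 37, 22 and 33 in controls in the authors' deposited table, a ratio of 3.52. The place from 239552551 to 239553350 was listed at DE, with 148, 149 and 166 in HNF6-KO samples against 74, 67 and 64 in controls, and at PP, with 329, 247 and 241 against 64, 107 and 105, in the authors' deposited table. Its ratio was 2.24 at DE and 2.94 at PP. At DE, chr2:239962401-239963350 had 345, 194 and 98 against 121, 76 and 86 in the authors' deposited table, with 1 of the knockout values inside the range of the controls. At GT the highest -log10 p belonged to chr2:239680251-239682050, with 377, 395 and 497 in HNF6-KO samples against 225, 203 and 267 in controls in the authors' deposited table. Larger GT ratios were 3.01 at chr2:239912501-239913000 and 3.10 at chr2:239662001-239662450, and at chr2:239662001-239662450 the values overlapped, with 43, 49 and 144 in HNF6-KO samples against 15, 14 and 45 in controls in the authors' deposited table.

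The largest PE ratios on this side were 3.47 at chr2:239841201-239841550 and 3.29 at chr2:239696251-239696650. The first had 123, 63 and 71 in HNF6-KO samples against 20, 52 and 0 in controls, and the second 97, 162 and 107 against 39, 14 and 56, in the authors' deposited table. The PE region chr2:239608751-239609650 had 448, 313 and 163 in HNF6-KO samples against 143, 158 and 118 in controls in the authors' deposited table, a ratio of 2.20. At ESC, chr2:239907201-239908650 was second to the TWIST2 start by -log10 p, with 576, 533 and 659 in HNF6-KO samples against 437, 236 and 394 in controls in the authors' deposited table.

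Among knockout lists, PE was the one in which ratios in the block stood farthest above those of the whole list. The median knockout-to-control ratio of the knockout-list regions was 1.91 in the block and 1.91 in the whole list at ESC, 1.96 and 1.77 at DE, 1.87 and 2.07 at GT, 2.12 and 1.52 at PE, and 1.96 and 2.11 at PP. At PE 16 of 28 regions reached a 2-fold ratio (57.1%), against 23.3% of the whole knockout PE list and 22.8% of it in both flanks. Over all stages, 46.8% of knockout-list and 42.2% of control-list regions of the series reached that ratio. The block's PE regions had a median knockout mean of 213, against 506 in the whole list. They were also narrower, with a median width of 600 bp against 900 bp, and the values are not scaled to width. Whether their larger ratios go with their lower values was not tested. Widths in the block ran from 250 to 4200 bp, with 2 regions of at least 3 kb: the TWIST2 start at ESC, and chr2:240196601-240199900 in the knockout GT list.

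Agreement of the 3 samples differed between stages. The genotypes did not overlap in 99 of the 123 regions, where the background over all lists was 78.5%. In the knockout lists this held for 17 of 19 regions at ESC (background 77.7%), 6 of 8 at DE (76.1%), 17 of 20 at GT (82.5%), 25 of 28 at PE (74.9%) and 23 of 37 at PP (79.4%). In the control lists it held for all 11, among them the 1 region each at DE (79.9%), GT (82.7%) and PP (82.5%). At PP the first knockout value was the highest of the 3 in 24 of 37 regions, and in 57.6% of the whole knockout PP list. Without it the median ratio of the block's PP regions was 1.73, and all 37 kept their direction, for which they had been listed. Whether the first value is always the same library is not stated, and its part in the PP differences was not tested.

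The block held 8.43 wild-type cluster regions per Mb, against 18.9 in both flanks together. Their density over the genome was not counted. Of its 7 cluster regions, each 500 bp wide, 6 lay on the HDAC4 side: 3 of cluster 9 and 1 each of clusters 1, 2 and 3. The region of cluster 8, chr2:239937828-239938327, was the 1 on the TWIST2 side. What accessibility profile each cluster number denotes is not stated in the labels. A listed region overlapped 1 of the 7 (14.3%), against 38.4% of all cluster regions and 42.1% of those in both flanks. It was the cluster 9 region chr2:240198332-240198831, inside the knockout GT region chr2:240196601-240199900. That GT region had 868, 714 and 941 in HNF6-KO samples against 557, 457 and 765 in controls in the authors' deposited table, with overlapping values and a ratio of 1.42. Of the 123 listed regions of the block 0.813% overlapped a cluster region, against 10.9% of all listed regions. Neither the listed regions at the TWIST2 start nor those of the place 15.7 to 20.8 kb beyond it overlapped one.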

How the data were processed

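The submitters' processing notes name Bowtie2, MACS2 and the hg19 build, without versions, roles or order. Which program called the differences, whether reads were shifted for the transposase and how libraries were scaled is not stated there. The deposited lists give, per region, a log2 ratio of control over knockout, made by the authors, and a field with 2 sets of 3 whole numbers and a score of at least 5, read as -log10 p. Taking means of each set, adding 1 and dividing gave the same log2 ratio (largest difference 5.0e-12). The first set was read as knockout because it is the higher in the knockout lists and the lower in the control lists, in 10 of 10 lists. The files do not say whether these numbers are raw or scaled. They are called values here, no count model was run, and depth and its precision are unknown.

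Regions were counted with a minimum overlap of 1 bp in Python 3.11.15, with code tested on simulated regions. No hg19 annotation was used here, so MEF2, TWIST1, E-protein and other class IIa deacetylase loci were not analysed here. Members, sides and lists were chosen with earlier results of these data known. Named regions are, per list, the 3 with the largest ratio and the 3 with the highest -log10 p, and places listed at 3 or more stages or in opposite directions. The block's edges, the HDAC4 start, the leading knockout PP region of the HDAC4 side and the GT region that overlaps a cluster were named after their values were seen.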

Additional observations from a re-analysis of the deposited data

How the results depend on the processing

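With a -log10 p of at least 10, the block kept 2 knockout-list regions at ESC, 0 at DE, 1 at GT, 6 at PE and 6 at PP, and 0 control-list regions at each stage. The control share of 0% at ESC, GT and PP thus rests on these few regions. The highest -log10 p of a control-list region in the block was 9.08, at ESC, and the median of the whole control ESC list was 6.26. How much of the whole lists or of the flanks reached 10 was not counted, so this share is no result about direction. With a 2-fold ratio as minimum, the knockout lists kept 7 of 19 at ESC, 7 of 20 at GT and 17 of 37 at PP. These shares were below the 45.6%, 53.9% and 56.8% of the whole knockout lists of those stages. At DE 4 of 8 were kept and at PE 16 of 28, above the 33.9% and 23.3% of the whole lists. The control lists kept 5 of 8 at ESC, against 28.1% of the whole list, 0 at DE, 0 at GT and 1 at PP. At that minimum the density of the block at PE was 4.94 times that of both flanks together, against 2.38 times for all regions. With separate genotypes required, the knockout PP list kept 23. The control share, 29.6% at ESC, 11.1% at DE, 4.76% at GT and 2.63% at PP, was 61.5% at ESC and 100% (1 region) at DE on the HDAC4 side alone, and 0% at these 4 stages on the TWIST2 side alone. Leaving out any 1 of the 6 values of a region, 123 of 123 regions kept their direction. Each region had been listed for a difference in that direction, so this says little about the block. The same share over all lists was not counted. No paired analysis was possible because the value columns carry no replicate numbers and the results come from no test. Lists could not be called again without a sample, since they hold called regions only.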

Other observations

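The longest stretch of the block without a listed region at PE lay inside HDAC4, 231 kb between 239976050 and 240206851. It was picked after the data were seen. The same stretch held 7 of the 8 control-list regions of the block at ESC and 2 knockout-list regions, and 5 knockout-list regions and 1 control-list region at GT. At PP it held 11 knockout-list regions. At DE 0 regions were listed there.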
